A study of Mus musculus with 4 samples.

Results

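The 10 genes described here encode amino acid transport proteins of the proximal tubule and were taken by symbol from a list made with earlier results of these data known: Slc7a9, Slc3a1, Slc7a13, Slc6a19, Slc6a18, Slc1a1, Slc7a7, Slc7a8, Slc6a13 and Slc7a12. All 10 were found among the 21312 genes of a table of proximal tubule nuclei and among the 24468 genes of a table of 17 kidney clusters. Nuclei came from the cortex and outer medulla of kidneys of male C57BL/6 mice. The treated group, Cis9w, received the anticancer drug cisplatin, which is toxic to tubule cells of the kidney, at 8 mg/kg once a week for 4 weeks, and its kidneys were taken 9 weeks after the first dose. The CT9w group was untreated, and the labels name no vehicle injection for it. Each group had 2 samples, 4 in all, but each value is a pool of nuclei with no sample of its own, so the spread between replicates is unknown and no test across samples was run. The sources used here do not say whether the proximal tubule nuclei came from 1 or from both samples of each group. In the labels, the table of proximal tubule nuclei is named under replicate 1 of each group and the cluster table under replicate 2. The UMIs of the 2 proximal tubule pools come to 57.6% of those in the 6 clusters named as proximal tubule. All comparisons of CT9w with Cis9w are between 2 pools.

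The proximal tubule reclaims nearly all filtered amino acids. Transporters of the luminal brush border take them up from the filtrate, and exchangers and uniporters of the basolateral membrane pass them on to the blood. Several of these transporters work only as pairs: a light chain that carries the amino acid (Slc7a9, Slc7a13, Slc7a7, Slc7a8) is brought to the membrane by a heavy chain (Slc3a1 on the luminal side, Slc3a2 on the basolateral side), and Slc6a19 and Slc6a18 need the accessory protein collectrin, encoded by Cltrn, at the brush border. The early segments S1 and S2 and the straight segment S3 are known to carry different members of these families. In mice, Slc7a13 is known as a gene with higher kidney expression in males, and Slc7a12 as one with higher kidney expression in females.

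Levels are the deposited averages, normalised counts of unique molecular identifiers (UMIs) per nucleus, from a 3' assay of nuclear RNA. They were not corrected for gene length, so levels were compared between columns for 1 gene and not between genes. The UMI sums behind the averages were recovered from them, and each 95% interval given below covers counting error of those sums and nothing else. The CT9w pool held 5123727 UMIs and the Cis9w pool 8557662. Defining genes of the proximal tubule were abundant in both, with the endocytic receptor gene Lrp2 at 6.32 in CT9w and 7.43 in Cis9w and the phosphate carrier gene Slc34a1 at 11 and 12. Of 7 general proximal tubule genes, these 2 had positive log2 fold changes and the other 5 negative ones, such as Keg1, at 7.61 and 4.9. The summed level of the 7 was 38.9 in CT9w and 35.9 in Cis9w. A gene is called changed where the p-value of the authors' deposited table, which may or may not be adjusted, is under 0.05, and 454 of the 21312 genes were called in that table, which is 2.13%, with 0.995% higher and 1.14% lower in Cis9w.

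On the mouse build mm10 (GRCm38) with the GENCODE M21 annotation, 2 pairs of the 10 genes share a chromosome. Slc7a13 spans chr4:19818725-19842218 on the plus strand and Slc7a12 spans chr3:14480697-14505830 on the plus strand, and neither overlaps another annotated gene. Slc6a18 (chr13:73661752-73678023) and Slc6a19 (chr13:73679745-73704865) are neighbours on the minus strand, 1721 bases apart with no gene between them. Slc7a7 (chr14:54369442-54417780) and Slc7a8 (chr14:54722209-54781946) are both on the minus strand, 304 kb apart, with 16 protein-coding genes between them. The others are Slc7a9 (chr7:35448796-35466036, plus), Slc3a1 (chr17:85028376-85064236, plus), Slc1a1 (chr19:28835049-28913960, plus) and Slc6a13 (chr6:121300227-121337733, plus). Slc3a1 overlaps Prepl, Slc7a7 overlaps Oxa1l, Slc6a19 overlaps the antisense gene Slc6a19os, Slc1a1 overlaps Gm5822 and 4430402I18Rik, and Slc6a13 overlaps the miRNA gene Gm24855. All of these lie on the opposite strand, and the sources used here do not say whether the counting used strand, so UMIs of these pairs may not have been told apart.

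Of the 10 genes, 7 have promoter sequences in the RefSeq table used (GRCm38.p6). The sequences just upstream of Slc3a1, Slc1a1 and Slc6a13 are shown because they are the 3 genes with a sequence whose levels over the 17 clusters were most alike as a set. They run up to 250 bases before the RefSeq start and stop before the first annotated exon, written 5′ to 3′ in lower case, with a match to a searched motif in capitals.
Slc3a1, chr17:85028097-85028346, plus strand: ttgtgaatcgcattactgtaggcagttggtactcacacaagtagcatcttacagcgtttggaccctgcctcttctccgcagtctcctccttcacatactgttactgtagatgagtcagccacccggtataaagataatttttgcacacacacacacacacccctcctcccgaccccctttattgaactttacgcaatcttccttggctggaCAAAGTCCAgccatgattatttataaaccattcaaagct
Slc1a1, chr19:28834885-28835048, plus strand: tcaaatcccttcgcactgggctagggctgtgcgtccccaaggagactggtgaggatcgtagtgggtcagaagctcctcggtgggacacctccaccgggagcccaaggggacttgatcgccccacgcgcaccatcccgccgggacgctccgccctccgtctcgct
Slc6a13, chr6:121300038-121300226, plus strand: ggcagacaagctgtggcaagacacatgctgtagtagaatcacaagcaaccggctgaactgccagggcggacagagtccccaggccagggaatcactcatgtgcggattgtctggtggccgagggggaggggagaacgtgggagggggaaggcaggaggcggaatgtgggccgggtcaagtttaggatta
The motifs were searched on both strands: CAAAGTCCA, a core of HNF4A sites, AGAACA, a steroid receptor half-site, and TTCNNNGAA, a STAT5 site. The capitals in Slc3a1 mark CAAAGTCCA, 39 to 31 bases before the start. This core was found in 0.384% of 32851 windows of 250 bases upstream of RefSeq starts. None of the 3 motifs was found in the stretches of Slc1a1 and Slc6a13 shown. Among all 14 windows of the 7 genes, AGAACA was found in the window of Slc6a19 and in 2 windows of Slc7a7 (16.1% of all windows). A match describes letters and does not show a binding site.

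Between the 2 pools, 2 of the 10 genes were called. Slc7a13 fell 3.49-fold and Slc7a12 rose 5.93-fold in Cis9w, while the other 8 genes had ratios of Cis9w to CT9w between 0.803 and 1.37 and were not called. The share called, 20%, stands beside 2.13% over all genes, and beside 3.29% of the 10656 genes whose mean level reached the median of 0.0154 normalised UMIs per nucleus. All 10 genes reached that level. The same 2 genes were called at a p under 0.01 (1.26% of all genes), with an absolute log2 fold change of at least 1 as well (1.99% of all genes), and where the lower of both averages had to reach the median level (2.58% of 10114 genes). The members had a median deposited log2 fold change of -0.07 and all genes one of 0.04. Because of how the genes were chosen, the share is a description.

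The luminal cystine system came first. Slc7a13 encodes a light chain that carries cystine, aspartate and glutamate in S3. Its level was 4.07 normalised UMIs per nucleus in the CT9w pool (7456 UMIs) and 1.17 in the Cis9w pool (3572 UMIs). The treated pool was thus lower by 3.49-fold (95% interval 3.35 to 3.63), and the authors' deposited table gives a log2 fold change of -1.80 with p = 6.62e-10. Its heavy chain gene Slc3a1, which is mutated in cystinuria, was at 0.924 in CT9w (1693 UMIs) and 0.989 in Cis9w (3026 UMIs). That is a ratio of 1.07 (1.01 to 1.14), and the p in the authors' deposited table is 1. Slc7a9, the other light chain of Slc3a1 and the second cystinuria gene, was at 0.413 in CT9w (757 UMIs) and 0.382 in Cis9w (1170 UMIs), a ratio of 0.925 (0.844 to 1.02), with p = 1 in the authors' deposited table. The interval of Slc7a13 thus lies far below those of its heavy chain and of the other light chain. Per Slc3a1 UMI, Slc7a13 had 4.4 UMIs (4.18 to 4.65) in CT9w and 1.18 (1.12 to 1.24) in Cis9w, and Slc7a9 had 0.447 (0.41 to 0.487) and 0.387 (0.361 to 0.414). These ratios do not depend on how the pools were scaled.

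The neutral amino acid carriers of the brush border were not called. Slc6a19, the main sodium-dependent carrier of neutral amino acids and the gene of Hartnup disorder, was at 0.543 in CT9w (995 UMIs) and 0.436 in Cis9w (1334 UMIs). Its ratio of 0.803 (0.739 to 0.872) was the lowest after that of Slc7a13, and p was 1 in the authors' deposited table. Its neighbour Slc6a18, which takes up glycine and other neutral amino acids, was at 1.02 in CT9w (1874 UMIs) and 0.919 in Cis9w (2813 UMIs), a ratio of 0.899 (0.847 to 0.953), also with p = 1 in the authors' deposited table. Slc1a1, the brush border carrier of glutamate and aspartate, was at 1.53 in CT9w (2797 UMIs) and 1.38 in Cis9w (4210 UMIs), a ratio of 0.901 (0.859 to 0.946), with the same p of 1 in the authors' deposited table. All 3 intervals lie below 1, but they hold no spread between animals, and no call was made for any of the 3 genes.

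On the basolateral side the values were level or somewhat higher in Cis9w, with no call. Slc7a7 encodes the exchanger that exports lysine and arginine and is mutated in lysinuric protein intolerance. It was at 1.02 in CT9w (1863 UMIs) and 1 in Cis9w (3060 UMIs), a ratio of 0.983 (0.928 to 1.04). Slc7a8, an exchanger of neutral amino acids, was at 0.693 in CT9w (1269 UMIs) and 0.951 in Cis9w (2909 UMIs). Its ratio of 1.37 (1.28 to 1.47) was the largest among the 8 uncalled genes, with a log2 fold change of 0.46 and p = 0.813 in the authors' deposited table. Slc6a13, which takes up GABA and taurine from the blood side, was at 0.224 in CT9w (410 UMIs) and 0.278 in Cis9w (852 UMIs), a ratio of 1.24 (1.1 to 1.4), with p = 1 in the authors' deposited table.

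Slc7a12 encodes a light chain for small neutral amino acids whose heavy chain is not known. It was at 0.129 normalised UMIs per nucleus in the CT9w pool (237 UMIs) and at 0.767 in the Cis9w pool (2346 UMIs). The treated pool was 5.93-fold higher (5.18 to 6.8), with a log2 fold change of 2.56 and p = 1.26e-11 in the authors' deposited table. Slc7a12 and Slc7a13 thus went in opposite directions. There were 0.0318 Slc7a12 UMIs per Slc7a13 UMI in CT9w (0.0278 to 0.0362) and 0.657 in Cis9w (0.623 to 0.692), a change of 20.7-fold.

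**Figure D1:**
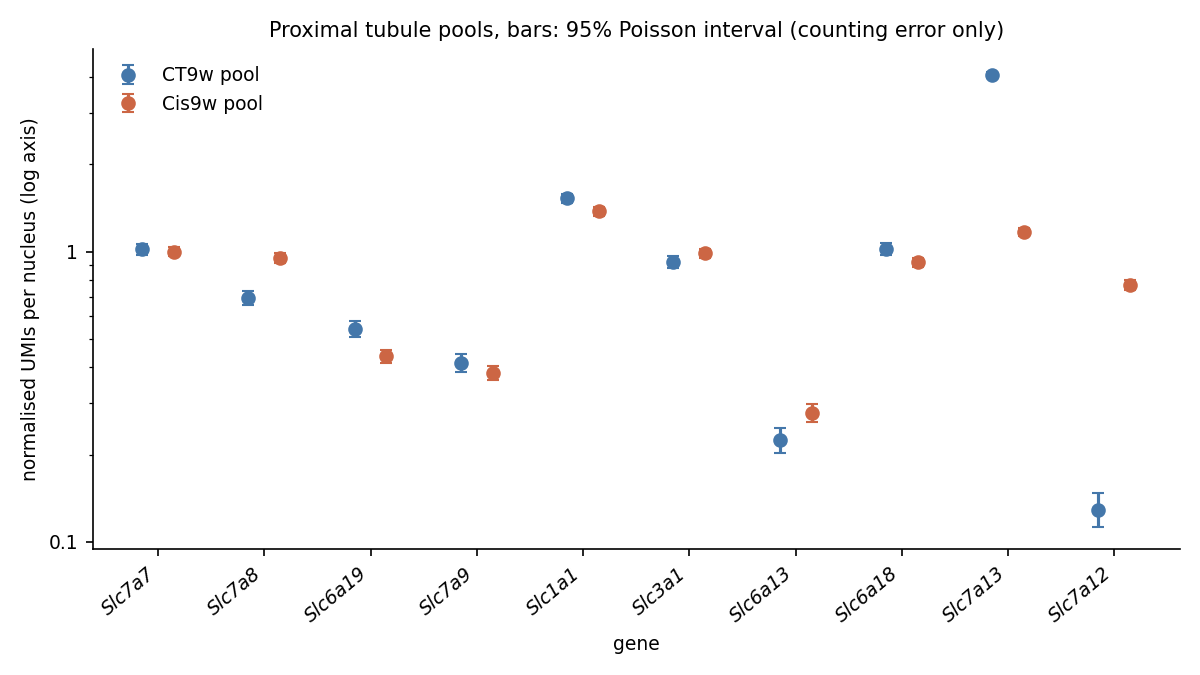
Level of each of the 10 genes (normalised UMIs per nucleus, log axis) in the proximal tubule pools of CT9w (blue) and Cis9w (orange), with bars for the 95% Poisson interval of the UMI sum. Slc7a13 drops from 4.07 to 1.17 and Slc7a12 climbs from 0.129 to 0.767, while the points of the other 8 genes lie close together.

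The partner proteins gave 1 call. Slc3a2, the heavy chain of Slc7a7 and Slc7a8, rose 2.29-fold (1.81 to 2.92), from 0.0486 in CT9w (89 UMIs) to 0.111 in Cis9w (340 UMIs), with a log2 fold change of 1.18 and p = 0.0112 in the authors' deposited table. Per Slc3a2 UMI, Slc7a7 had 20.9 UMIs (16.9 to 26.2) in CT9w and 9 (8.04 to 10.1) in Cis9w, and Slc7a8 had 14.3 (11.5 to 17.9) and 8.56 (7.64 to 9.6). Cltrn was at 0.515 in CT9w (943 UMIs) and 0.408 in Cis9w (1248 UMIs), a ratio of 0.792 (0.728 to 0.863), and was not called, with p = 1 in the authors' deposited table. Slc6a19 had 1.06 UMIs per Cltrn UMI in CT9w (0.964 to 1.15) and 1.07 in Cis9w (0.989 to 1.16). Slc6a18 had 1.99 (1.84 to 2.15) and 2.25 (2.11 to 2.41).

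A list of 55 other genes of amino acid transport gave little else. Of these, 47 were in the proximal tubule table, and 1 was called higher and 0 lower, a share of 2.13% beside 2.13% of all genes. The called gene was Slc3a2. Only 24 of the 47 reached the median level of 0.0154, and 1 of the 24 was called, beside 3.29% of all genes at that level. The median deposited log2 fold change was -0.03 and the range -2.74 to 2.07. Both ends of the range are genes with few UMIs, Slc7a4 (3 in CT9w and 0 in Cis9w) and Slc43a1 (0 and 6). None of 9 other luminal carriers, 7 of which reached that level, and none of 10 other basolateral carriers, 5 of which did, was called. Slc6a20a, a luminal carrier of proline, was at 0.228 in CT9w (417 UMIs) and 0.223 in Cis9w (682 UMIs), a ratio of 0.979 (0.866 to 1.11). Slc16a10, a basolateral uniporter of aromatic amino acids, was at 0.458 in CT9w (839 UMIs) and 0.56 in Cis9w (1713 UMIs), a ratio of 1.22 (1.12 to 1.33). Slc38a3, which brings glutamine in from the blood side, was at 0.0295 in CT9w (54 UMIs) and 0.0637 in Cis9w (195 UMIs), with a ratio of 2.16 (1.59 to 2.98) and p = 0.079 in the authors' deposited table.

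Over the 17 clusters the 10 genes fell into 2 sets by the proximal tubule cluster in which they were highest. The clusters were made from these data, so their order is a description. The columns name no group, so each cluster may mix untreated and treated nuclei in a share that the tables do not give. How levels by cluster depend on that mix was not tested, which bears most on Slc7a13 and Slc7a12. Slc7a7, Slc7a8, Slc6a19 and Slc7a9 were highest in PT-S1, and Slc7a13, Slc7a12, Slc6a18, Slc3a1, Slc1a1 and Slc6a13 in PT-S3-2. In 9 of the 10 genes 93.7% to 96.3% of the UMIs of the 17 clusters lay in the 6 proximal tubule clusters, and the exception was Slc7a8 with 84.9% (84.1 to 85.7).

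**Figure D2:**
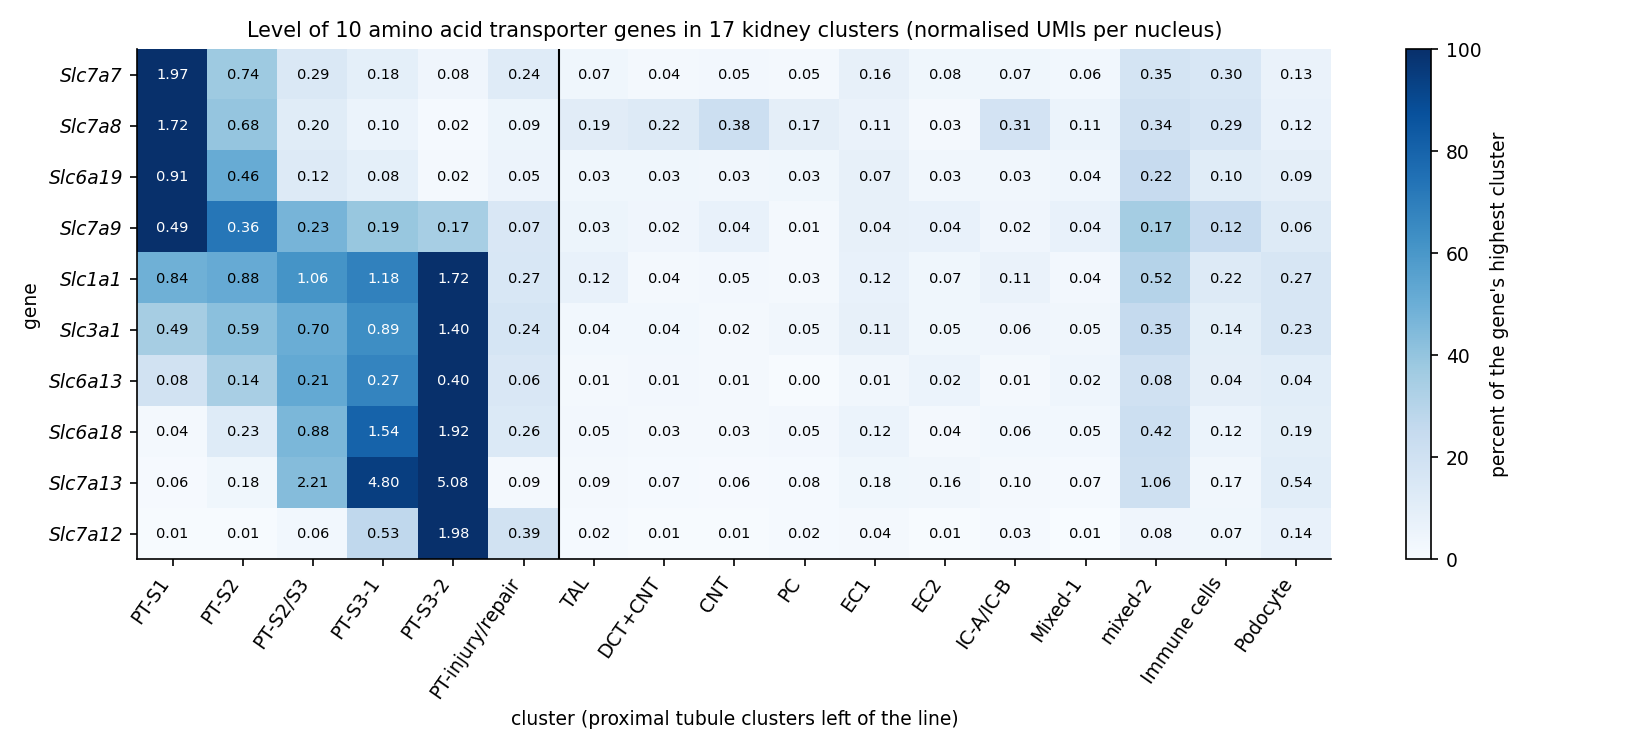
Level of the 10 genes (rows) in the 17 clusters (columns), with the proximal tubule clusters left of the line. Each cell prints the average in normalised UMIs per nucleus and its shade is the percent of that gene's highest cluster. The upper 4 genes are darkest in PT-S1 and the lower 6 in PT-S3-2.

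Among the early-segment genes, Slc7a7 went from 1.97 in PT-S1 (1.92 to 2.03) through 0.738 in PT-S2, 0.287 in PT-S2/S3 and 0.179 in PT-S3-1 to 0.0774 in PT-S3-2. Its level in PT-S1 was 25.5 times that in PT-S3-2 (21.6 to 30.4). Slc7a8 went from 1.72 in PT-S1 (1.67 to 1.77) through 0.68, 0.197 and 0.104 to 0.0236 in PT-S3-2, a ratio of 72.9 (54 to 101), the steepest of the 4. The luminal gene Slc6a19 went from 0.907 in PT-S1 (0.871 to 0.943) through 0.461, 0.115 and 0.0827 to 0.0209, a ratio of 43.5 (31.6 to 61.6). Slc7a9 had the shallowest gradient, from 0.492 in PT-S1 (0.466 to 0.519) through 0.359, 0.231 and 0.191 to 0.17 in PT-S3-2, a ratio of 2.9 (2.56 to 3.29). For Slc7a9 the step from PT-S2/S3 to PT-S3-1 was 1.21 (1 to 1.47), at the limit of counting error.

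Among the late-segment genes, Slc7a13 was at 0.0567 in PT-S1, 0.181 in PT-S2, 2.21 in PT-S2/S3, 4.8 in PT-S3-1 and 5.08 in PT-S3-2 (4.98 to 5.19). The level in PT-S3-2 was 89.7 times that in PT-S1 (76.4 to 106), but only 1.06 times that in PT-S3-1 (1.02 to 1.1). Slc7a12 was at 0.0107 in PT-S1, 0.0103 in PT-S2, 0.0581 in PT-S2/S3, 0.526 in PT-S3-1 and 1.98 in PT-S3-2 (1.91 to 2.04), where it was 3.76 times as high as in PT-S3-1 (3.36 to 4.2) and 184 times as high as in PT-S1 (128 to 275). The step between the S3 clusters thus differed between the 2 genes by more than counting error.

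Slc6a18 was at 0.0426 in PT-S1, 0.234 in PT-S2, 0.878 in PT-S2/S3, 1.54 in PT-S3-1 and 1.92 in PT-S3-2, 45.1 times its PT-S1 level (37.4 to 54.8). Slc6a18 and Slc6a19, although adjacent on the chromosome, had opposite gradients. The remaining 3 genes were present throughout the tubule with shallower gradients. Slc6a13 went from 0.0756 in PT-S1 to 0.4 in PT-S3-2, 5.3 times as high. Slc3a1 went from 0.489 to 1.4, 2.86 times as high (2.67 to 3.06), and Slc1a1 from 0.842 to 1.72, 2.04 times as high (1.93 to 2.15). For Slc1a1 PT-S2 (0.884) and PT-S1 did not differ beyond counting error, with a ratio of 1.05 (0.987 to 1.12).

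Set beside its heavy chain, the light chain changed along the tubule. Per Slc3a1 UMI, Slc7a9 had 1.01 UMIs in PT-S1 (0.932 to 1.09), 0.608 in PT-S2, 0.33 in PT-S2/S3, 0.214 in PT-S3-1 and 0.121 in PT-S3-2 (0.108 to 0.137). Slc7a13 went the other way, from 0.116 per Slc3a1 UMI in PT-S1 (0.0975 to 0.137) through 0.307 and 3.16 to 5.38 in PT-S3-1 (4.92 to 5.88) and 3.64 in PT-S3-2 (3.48 to 3.8). The basolateral heavy chain Slc3a2 was higher in PT-S1, at 0.0911 (0.0801 to 0.103), than in PT-S3-2, at 0.0242 (0.0176 to 0.0324), and was highest of all clusters in EC2, at 0.11 (0.0818 to 0.144), whose interval overlaps that of PT-S1. Cltrn was at 0.466 in PT-S1 (0.44 to 0.492), 0.456 in PT-S3-1 (0.406 to 0.51) and 0.216 in PT-S3-2 (0.195 to 0.239).

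Across the 17 clusters, the correlation of log2 levels was 0.97 between Slc3a1 and Slc1a1, 0.96 between Slc3a1 and Slc6a13, and 0.94 between Slc1a1 and Slc6a13. These are Pearson coefficients over clusters that share libraries and depth, given as a description. Slc6a19 and Slc7a7 had 0.95 and Slc7a13 and Slc6a18 had 0.93. Within the 6 proximal tubule clusters the highest coefficients, rounded, were 1.00 between Slc6a19 and Slc7a8 and 0.99 between Slc7a7 and Slc7a8. The lowest were -0.95 between Slc7a8 and Slc7a12 and -0.94 between Slc6a19 and Slc7a12.

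The cluster named PT-injury/repair held less of most of the 10 genes than the 5 other proximal tubule clusters pooled. Slc7a13 was lowest, at 0.0867, which is 4.51% of the pooled level of 1.92 (3.52 to 5.69). Slc7a8 was at 14% (10.9 to 17.6), Slc6a19 at 14.6% (10.6 to 19.8), Slc7a9 at 24.3%, Slc1a1 at 24.5%, Slc6a13 at 30.3%, Slc3a1 at 31.4%, Slc7a7 at 31.9% and Slc6a18 at 34.6% (30.1 to 39.7). Slc7a12 was at 0.385 in the injury cluster and 0.383 in the 5 others, which is 100% (89.3 to 113). That pooled level joins 0.0107 in PT-S1 and 0.0103 in PT-S2 with 1.98 in PT-S3-2. The level of Slc7a12 in the injury cluster was thus far below that in PT-S3-2. In the CT9w pool the injury genes Havcr1 and Vcam1 had 2 and 3 UMIs, beside 177 and 217 in Cis9w, and the share of treated nuclei in the injury cluster cannot be told apart from its own level of Slc7a12 or Slc7a13. For comparison, 7 general proximal tubule genes were at 11.6% (Slc34a1, the phosphate carrier) to 19.9% (Pdzk1, a brush border scaffold). By this pooled measure Slc7a13 lay below the range of these genes, Slc7a8 and Slc6a19 within it and the other 7 transporter genes above it, with Slc7a12 farthest. Of those above it, Slc7a9 (18.5 to 31.2) and Slc1a1 (21.3 to 28) had intervals that overlapped that of Pdzk1 (17.9 to 22.1). The order of the genes depends on the sizes of the pooled clusters, most for genes held mainly by some segments.

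**Figure D3:**
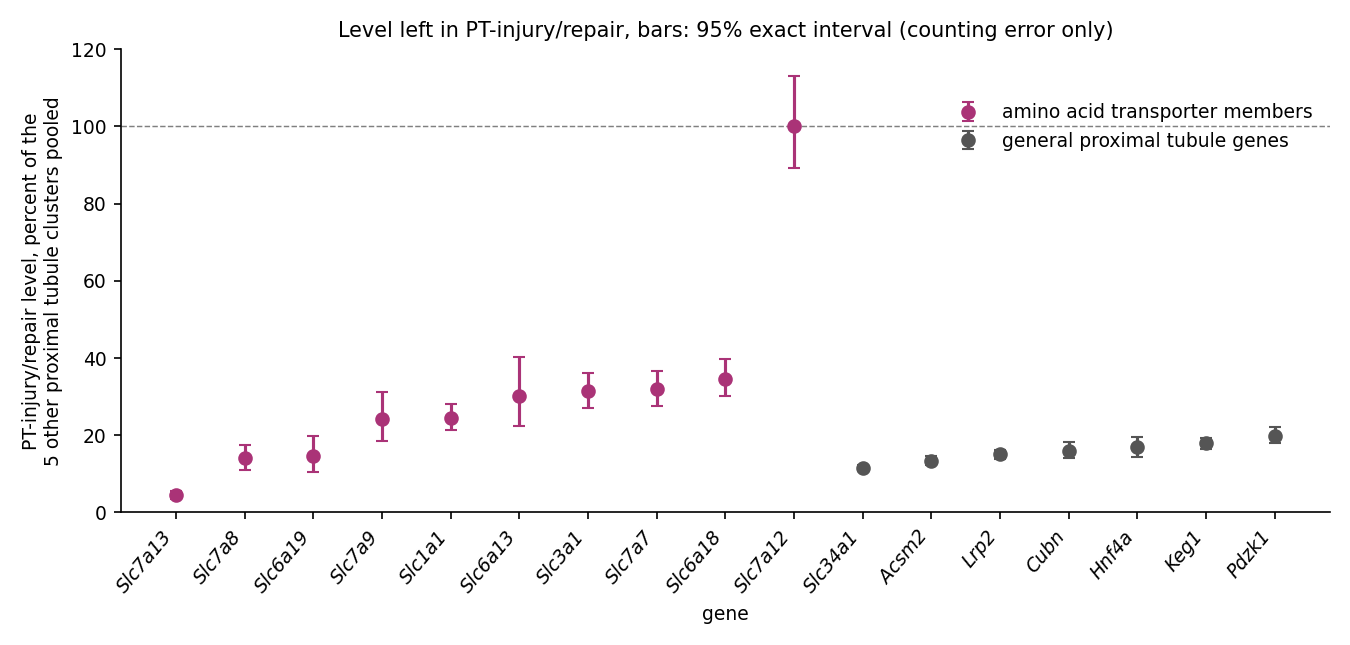
Level in the PT-injury/repair cluster as a percent of the level in the 5 other proximal tubule clusters pooled, for the 10 transporter genes (purple) and 7 general proximal tubule genes (grey), with 95% exact intervals. Slc7a13 is lowest at 4.51% and Slc7a12 highest at 100%, although Slc7a12 is at 0.385 in PT-injury/repair and 1.98 in PT-S3-2.

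The ratio of Slc7a12 to Slc7a13 also varied over the clusters. It was 0.0263 in PT-S2/S3, 0.0571 in PT-S2, 0.11 in PT-S3-1, 0.19 in PT-S1 (29 and 153 UMIs), 0.389 in PT-S3-2 and 4.44 in PT-injury/repair (3.42 to 5.82). The Cis9w value of 0.657 lies between those of PT-S3-2 and PT-injury/repair, and the CT9w value of 0.0318 between those of PT-S2/S3 and PT-S2.

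**Figure D4:**
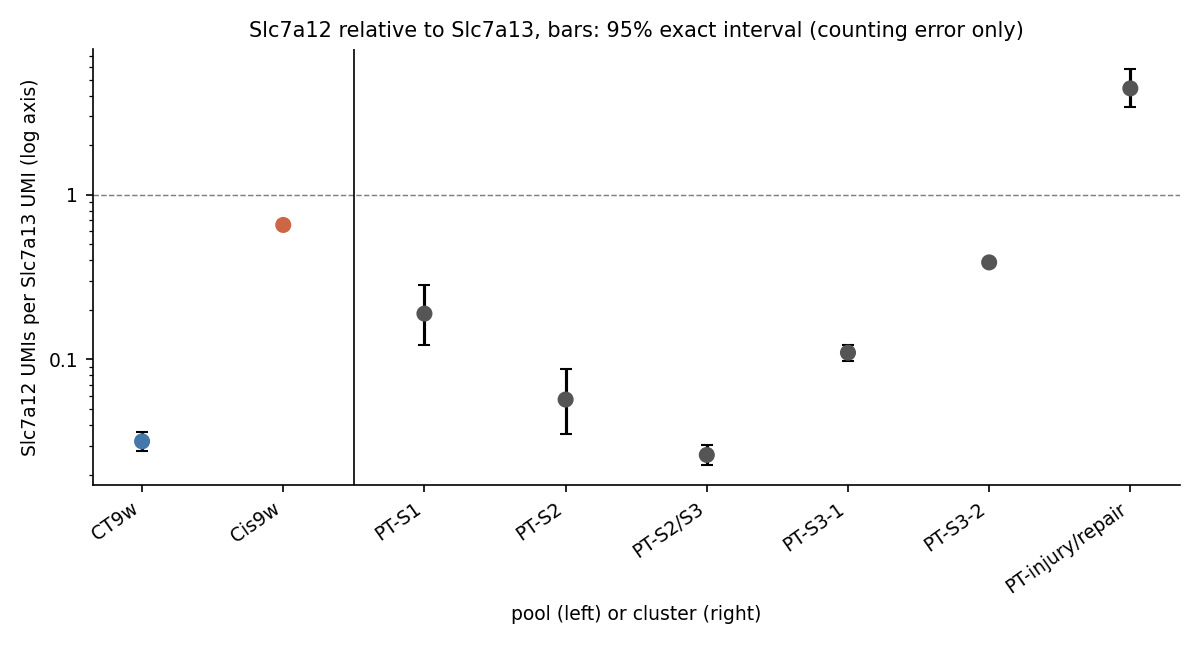
Number of Slc7a12 UMIs per Slc7a13 UMI (log axis) in the CT9w and Cis9w proximal tubule pools (left of the line) and in the 6 proximal tubule clusters (right of the line), with 95% exact intervals. The ratio is 0.0318 in CT9w and 0.657 in Cis9w, and passes 1 in the PT-injury/repair cluster at 4.44.

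Listed markers of the S3 segment other than the transporters were also lower in Cis9w. Of 10 S3 markers, 6 were called lower, beside 1.14% of all genes, and the summed level of the 10 was 17.4 in CT9w and 8.67 in Cis9w. The marker lists here and below were chosen with earlier results of these data known, so such shares are a description. The 4 S3 markers that were not called also had ratios below 1, 0.626 for Slc5a8, 0.67 for Slc27a2, 0.804 for Serpina1f and 0.827 for Agt. In the authors' deposited table the log2 fold changes were -2.65 for Cyp7b1, an oxysterol hydroxylase (p = 4.81e-15), -2.22 for the organic anion carrier gene Slc22a7 (p = 4.92e-06), -2.0 for the acyl-CoA synthetase gene Acsm3 (p = 1.88e-10), -1.29 for the lipid flippase gene Atp11a (p = 4.24e-05), -1.11 for Slc22a13 (p = 0.0194) and -0.94 for Slc22a30 (p = 0.0112). Of 6 S2 markers, 2 were called lower, Fmo5 with a log2 fold change of -1.51 (p = 2.25e-06) and Cyp2e1 with -1.37 (p = 2.56e-05) in the authors' deposited table. By cluster, Fmo5 was highest in PT-S3-1 and Cyp2e1 in PT-S2/S3. Other markers also departed from their list. The S2 markers Slc13a1 and Slc34a3 were highest in PT-S1, the S1 marker Slc13a3 in PT-S2 and the called S3 marker Slc22a30 in PT-S2/S3. The S2 markers Slc22a8 and Slc13a1 had ratios of 1.57 (1.46 to 1.68) and 1.55 (1.51 to 1.6) and were not called. Slc34a3, with a ratio of 0.745 (0.547 to 1.02), and Slc22a12, with 0.93 (0.843 to 1.03), were not called either. The summed level of the 6 was 5.51 in CT9w and 7.03 in Cis9w. None of 8 S1 markers was called, with a median of 0.25 and a range of 0.04 to 0.41. Of the 6 transporter genes that were highest in PT-S3-2, Slc7a13 fell like the 6 called S3 markers, Slc7a12 rose, and the other 4 had ratios between 0.899 and 1.24. Fewer S3 nuclei in the Cis9w pool and less RNA per S3 nucleus cannot be told apart in pooled values.

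**Figure D5:**
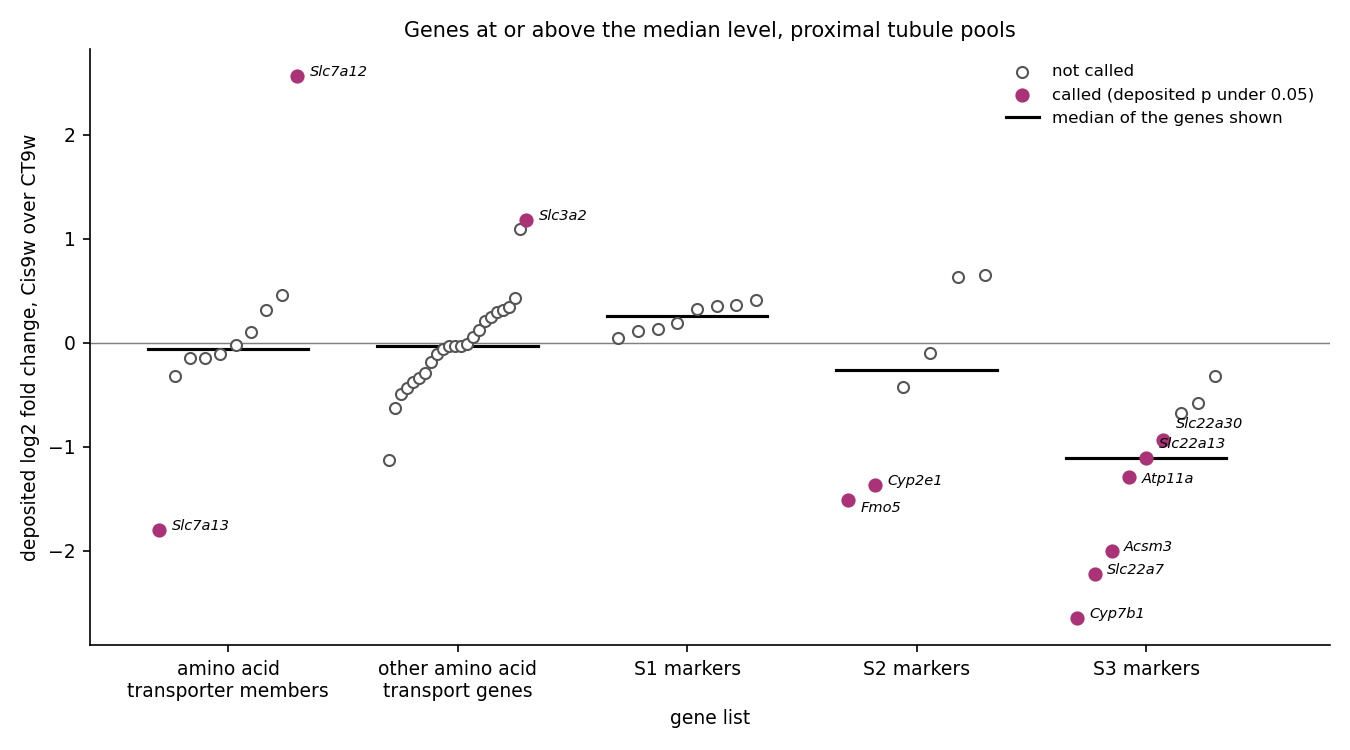
Deposited log2 fold change of Cis9w over CT9w for genes whose mean level reached the median of all genes, by list, with filled points for genes called in the authors' deposited table. The transporter genes gather near 0 apart from Slc7a13 at -1.80 and Slc7a12 at 2.56, and the S3 markers lie below 0.

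Markers of injured tubule and of other cell types were read in the same pools. Of 10 genes of injured proximal tubule, 7 were called higher, beside 0.995% of all genes, and all 10 had a positive log2 fold change. The summed level of the 10 was 0.238 in CT9w and 1.46 in Cis9w, with Lcn2, Krt20, Sox9 and Ccl2 at 0 UMIs in CT9w. General proximal tubule genes had 0 of 7 called, with a median log2 fold change of -0.12. The lists of other cell types, with 3 or 4 markers each, had none called. Their summed levels in CT9w and Cis9w were 1.37 and 0.951 for thick ascending limb, 0.499 and 0.464 for distal convoluted tubule, 0.24 and 0.188 for thin limb and 0.126 and 0.198 for endothelium. They were 0.0464 and 0.0758 for podocyte, 0.042 and 0.0611 for principal cell, 0.0306 and 0.0817 for intercalated cell, 0.018 and 0.0356 for immune cells and 0.0126 and 0.019 for fibroblast and mesangium, with Col1a1 at 0 UMIs in CT9w. The part of these cells and of injured tubule nuclei in the changes of Slc7a13, Slc7a12 and Slc3a2 was not tested.

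Outside the proximal tubule, Slc7a8 stood apart. Its level in the connecting tubule cluster CNT was 0.376 (0.321 to 0.437), which is 63.4% of its pooled proximal tubule level (54.3 to 73.7), while the 10 genes had a median of 4.6% and none of the 7 general proximal tubule genes was above 6.62% there. In the intercalated cell cluster IC-A/IC-B it was at 0.313, 52.8% (46.2 to 60.2), beside a median of 7.99% for the 10 genes and at most 7.39% for the general genes. It was at 0.224 in DCT+CNT, 37.8% beside at most 5.01%, at 0.165 in PC, 27.8% beside at most 4.86%, and at 0.194 in TAL, 32.8% beside at most 6.22%. With Slc7a8 included, 7 of the 10 genes lay above the highest general gene in TAL. There were 6 such genes in each of DCT+CNT, PC and IC-A/IC-B, and 4 in CNT. Not all of them were separated from that gene by counting error. The highest general gene in TAL was Acsm2, at 6.22% (5.6 to 6.9). Slc7a7 at 10.1% (8.24 to 12.2) and Slc6a19 at 9.82% (7.24 to 13) lay above its interval. Slc6a18 at 6.65% (5.18 to 8.4) and Slc7a12 at 6.31% (4.39 to 8.77) overlapped it. In DCT+CNT, Slc6a13 was at 5.16% (2.58 to 9.23), from 11 UMIs. Slc1a1 was at 11.9% in TAL (10.2 to 13.8) and 10.7% in IC-A/IC-B (8.44 to 13.3). In the immune cell cluster Slc7a8 was at 48.5% (36.2 to 63.6), Slc7a7 at 42.7% (32.2 to 55.6), Slc7a9 at 41.8% (26.2 to 63.3) and Slc6a19 at 31.1% (18.7 to 48.6), where the general genes reached at most 26.2%. The 10 genes had a median of 53.9% in the mixed-2 cluster and 26% in Podocyte, where the general proximal tubule genes were at 39.8% to 57.7% and 22.5% to 27.8%. In both clusters the median of the 10 genes thus lay within the range of the general proximal tubule genes. In each, 3 of the 10 lay above that range, all with intervals that reached into it. Slc7a12 was above the range in Podocyte, at 37.5% (27.4 to 50), and below it in mixed-2, at 20.6% (9.88 to 37.9).

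The genes with levels most like each member over the 17 clusters were named by their Pearson correlation. For Slc7a13 they were Slc5a4a (0.977), Acsm3 (0.976) and Akr1c14 (0.971). All 3 were also called lower in Cis9w, beside 1.14% of all genes and 6 of the 10 S3 markers. Their log2 fold changes were -1.11 (p = 0.00459), -2.0 (p = 1.88e-10) and -3.12 (p = 1.70e-17) in the authors' deposited table. Acsm3 is itself 1 of those S3 markers, and the clusters behind the likeness may mix untreated and treated nuclei. The 3 calls are thus no independent support for the fall of Slc7a13. With Spearman's rho, or with only the 6 proximal tubule clusters, none of these 3 genes was named for Slc7a13. For Slc7a12 they were Higd1c (0.921), 4930414F18Rik (0.904) and Bcat1 (0.887), and none of the 3 was called higher in Cis9w. Higd1c was at 0.176 in CT9w and 0.164 in Cis9w, and Bcat1, a branched-chain aminotransferase gene, fell, with a log2 fold change of -2.63 (p = 2.30e-07) in the authors' deposited table.

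For Slc6a18 they were Slc10a2 (0.979), the bile acid carrier gene, Atp11a (0.970) and Fmo5 (0.964), of which Atp11a and Fmo5 fell as given above. Slc6a18 itself did not pass the test. For the other 7 members none of the genes named was called. They were Pter, Abcc2 and Slc27a2 for Slc3a1 (0.984 to 0.989), Rdh16, Gk and Keg1 for Slc1a1, Osbpl8, Scp2 and Gm43190 for Slc6a13, Dao, Cryl1 and Slc25a15 for Slc7a9, and Asl, Gatm and Slc16a14 for Slc6a19. Slc7a7 had Nox4, Prodh2 and Asl, so it shared Asl, the argininosuccinate lyase gene, with Slc6a19. Slc7a8, with Rnf212b (0.849), Suclg2 (0.810) and Car12 (0.797), had the lowest likeness of the 10. The names depend on the measure: of 30 places, 10 were filled by the same gene with Spearman's rho and 2 when only the 6 proximal tubule clusters were used.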

How the data were processed

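RNA of single nuclei from 4 kidney samples (2 untreated, 2 given cisplatin) was captured in droplets and read from its 3' end, per the labels' protocols. The submitters' processing notes name Cell Ranger 5.0.1 and mm10. The sources used here do not say how doublets and free RNA were treated, how nuclei were filtered and clustered, which test gave the p-values or whether these are adjusted. Per the file headers, both tables hold for each gene a p-value, a log2 fold change and an average. The deposited averages are a signal of normalised UMIs per nucleus, scaled by the authors separately in each table, so levels were not compared between the tables.

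UMI sums were recovered from the averages, which in each column were multiples of 1 step (99.995% of genes or more came out whole to 0.1 UMI). The deposited log2 fold changes were matched from them within 0.0162. Intervals are 95% exact Clopper-Pearson (ratios, shares) or Poisson intervals (levels), computed with scipy 1.17.1 and tested on simulated data. Called means a deposited p-value under 0.05. Likeness used log2(average + 0.01) over genes reaching 0.1 in a cluster, 3 genes per member. Named were all members, 5 partner genes, and called transport genes and segment markers, with others chosen as examples. The members and lists were chosen with earlier results of these data known. Other call rules, scalings and likeness measures were tried. Some genes of the lists are not reported here and were left out of list values.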

Additional observations from a re-analysis of the deposited data

How the results depend on the processing

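Both calls among the 10 genes held at a deposited p under 0.01, with an absolute log2 fold change of at least 1, and with a stricter level filter. Of the other amino acid transport genes, 0 were called at a p under 0.01 (1.26% of all genes), since Slc3a2 has p = 0.0112 in the authors' deposited table. Scaling to the general proximal tubule list shifts log2 ratios by 0.117 upward and gives -1.68 for Slc7a13 in place of -1.80. Of 50 recomputed ratios 44 moved by less than their counting interval, and the 6 others moved under this scaling. It turned the sign of 2 uncalled genes, Slc7a9 (from -0.11 to 0.01) and Slc7a7 (from -0.02 to 0.09). The planned settings for the cluster of highest level could not change it by construction, so they show nothing about it. No paired analysis was possible because no column carries a sample or a replicate number. For the same reason no replicate could be left out, and a count test on the recovered UMIs was not run, since each group is 1 pool. Depth limits the low genes most: 3 UMIs are an average of 0.00164 in the CT9w pool and 0.000981 in the Cis9w pool.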
